A study of Saccharomyces cerevisiae with 2 samples.

Results

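The genes described here encode the proteins of the large (60S) subunit of the yeast cytosolic ribosome and its lateral stalk. They were chosen by name, not by their values: every coding sequence (CDS) in the deposited tables whose standard name in the R64 annotation is RPL followed by a digit, or is RPP0, RPP1A, RPP1B, RPP2A or RPP2B. The rule found 81 genes among 6666 CDS identifiers, all of the 81 such names in the annotation, and they encode 46 proteins: 35 from a pair of paralogs, A and B, and 11 from a single gene. The data are ribosome profiling, in which the stretches of mRNA that ribosomes protect from nuclease are sequenced, from 2 replicate libraries of Saccharomyces cerevisiae BY4742, a haploid laboratory strain. Both had been grown in synthetic medium to the middle of exponential growth and treated with cycloheximide, an inhibitor of elongation, at 50 µg/mL. There is 1 group and no untreated or mutant sample. Since nothing in the labels ties the replicates to separate cultures, the spread between them may be technical. The purpose stated for the series was to look for translated reading frames outside annotated genes.

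In the large subunit, proteins stabilise the ribosomal RNA that forms the peptidyl transferase centre and the exit tunnel. The stalk, made of P0 with P1 and P2 heterodimers on a base shared with Rpl12, recruits and stimulates the GTPases of translation. Most large-subunit proteins are present once per ribosome, whereas P1 and P2 are each present in 2 copies. In yeast, many of these genes were kept as pairs after an ancient genome duplication, most contain an intron, and their transcription is driven together by Rap1, Fhl1, Ifh1 and Sfp1 in growing cells. Rpl28 and Rpl42 line the site at which cycloheximide binds, and mutations in either can give resistance to the drug.

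Much of what follows turns on how alike the paralogs are, so the sequences that show it are printed first, 5′ to 3′, from the R64 sequence (sacCer3). RPL41A and RPL41B, which encode the shortest member, differ at the capital letter in their whole coding sequences (78 nt, chrIV:130407-130484 and chrIV:221724-221801, minus strand).
RPL41A: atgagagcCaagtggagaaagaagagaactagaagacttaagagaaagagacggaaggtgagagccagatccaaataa
RPL41B: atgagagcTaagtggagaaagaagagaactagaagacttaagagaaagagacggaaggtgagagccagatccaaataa
RPL1A and RPL1B, the genes of the L1 protuberance, hold only 4 differences in 654 nt, and the 60-nt stretch richest in them (chrXVI:135790-135849 and chrVII:254641-254700, plus strand) has these capitals.
RPL1A: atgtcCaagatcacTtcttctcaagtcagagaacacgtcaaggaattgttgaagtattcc
RPL1B: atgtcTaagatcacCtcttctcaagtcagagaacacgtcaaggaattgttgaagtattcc
RPL21A and RPL21B, whose split moved by over 10 percentage points between the libraries, differ more often, at 29 of 483 nt. Their richest stretch (chrII:606898-606957 and chrXVI:407297-407356, plus strand) is shown in the same way.
RPL21A: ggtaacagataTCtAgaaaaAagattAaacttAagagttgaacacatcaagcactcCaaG
RPL21B: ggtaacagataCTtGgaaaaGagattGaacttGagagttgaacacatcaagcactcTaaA

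The 5 stalk genes end alike. Their last 42 nt encode the acidic tail through which the stalk binds translation factors, and 35 of these positions, in capitals, are the same in all 5 genes (RPP0 chrXII:806784-806825, RPP1B chrIV:230486-230527, RPP2A chrXV:254576-254617 and RPP2B chrIV:1239783-1239824 on the plus strand, RPP1A chrIV:309802-309843 on the minus strand).
RPP0: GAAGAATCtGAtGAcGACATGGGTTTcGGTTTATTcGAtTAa
RPP1A: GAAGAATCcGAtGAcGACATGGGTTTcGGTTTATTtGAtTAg
RPP1B: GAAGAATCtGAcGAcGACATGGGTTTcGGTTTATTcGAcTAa
RPP2A: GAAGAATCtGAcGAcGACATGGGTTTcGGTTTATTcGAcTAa
RPP2B: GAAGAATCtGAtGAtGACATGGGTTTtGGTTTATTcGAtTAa
Compared position by position over their whole coding sequences, tail included, RPP1A and RPP1B match at 46.4% of positions. The median is 93.7% over the 32 pairs of equal length. Such a count allows no gaps, so sequences out of register would lower it.

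The libraries held 23437283 and 2733591 reads in CDSs, so 1 read was worth 0.0427 and 0.366 CPM (reads per 1000000 CDS reads) in replicates 1 and 2. Markers of the strain followed its known genotype: URA3 was listed at 0 in both, LEU2 had 1 and 0 reads and LYS2 2 and 0, while MET17, intact in BY4742, had 2935 and 420 and HIS3, partly deleted, 1046 and 116. Replicate 2 had lower CPM for most CDSs, with a median log2 ratio of -0.61 over the 5131 CDSs that averaged 10 or more reads; below, this is called the shared shift.

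Large-subunit genes were among the most read in the cell. Together they took 14.1% of CDS reads in replicate 1 (95% Wilson interval 14.06% to 14.09%) and 14.6% in replicate 2 (14.5% to 14.6%). Their average share was 14.3% ± 0.354 (SD, n = 2). The 56 genes of small (40S) subunit proteins took 13.1% and 12.3%. The median large-subunit gene had 1312 CPM in replicate 1 and 960 in replicate 2, against 22.9 and 13.2 for all CDSs. By mean CPM, 27 members were among the 100 most read CDSs, 70 were in the top 10%, and 80 lay above the median of all CDSs. No member was listed at 0, and all 81 passed the minimum of 10 reads. The lowest, RPL12B, had 272 and 14 reads.

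To compare genes of different length, CPM was divided by the coding length in kilobases, and the values of a protein's genes were added. This level per kilobase ranged over 143-fold between proteins in replicate 1 and over 291-fold in replicate 2, from RPL1 to RPP2, with a coefficient of variation of 89.6% and 117%. The middle of the range was narrower. The median protein had 5458 CPM per kb in replicate 1 and 5272 in replicate 2, and 29 and 25 of the 46 proteins lay within 2-fold of it. The order was much the same in both libraries, with Spearman's rho = 0.940 over 46 proteins that share the libraries. The steps within it were small: of 45 neighbouring pairs in the order, 5 were separated by more than the spread of the libraries. Over 32 small-subunit proteins the median was 7584 and 6359 CPM per kb and the coefficient of variation 55.2% and 67.1%.

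**Figure D1:**
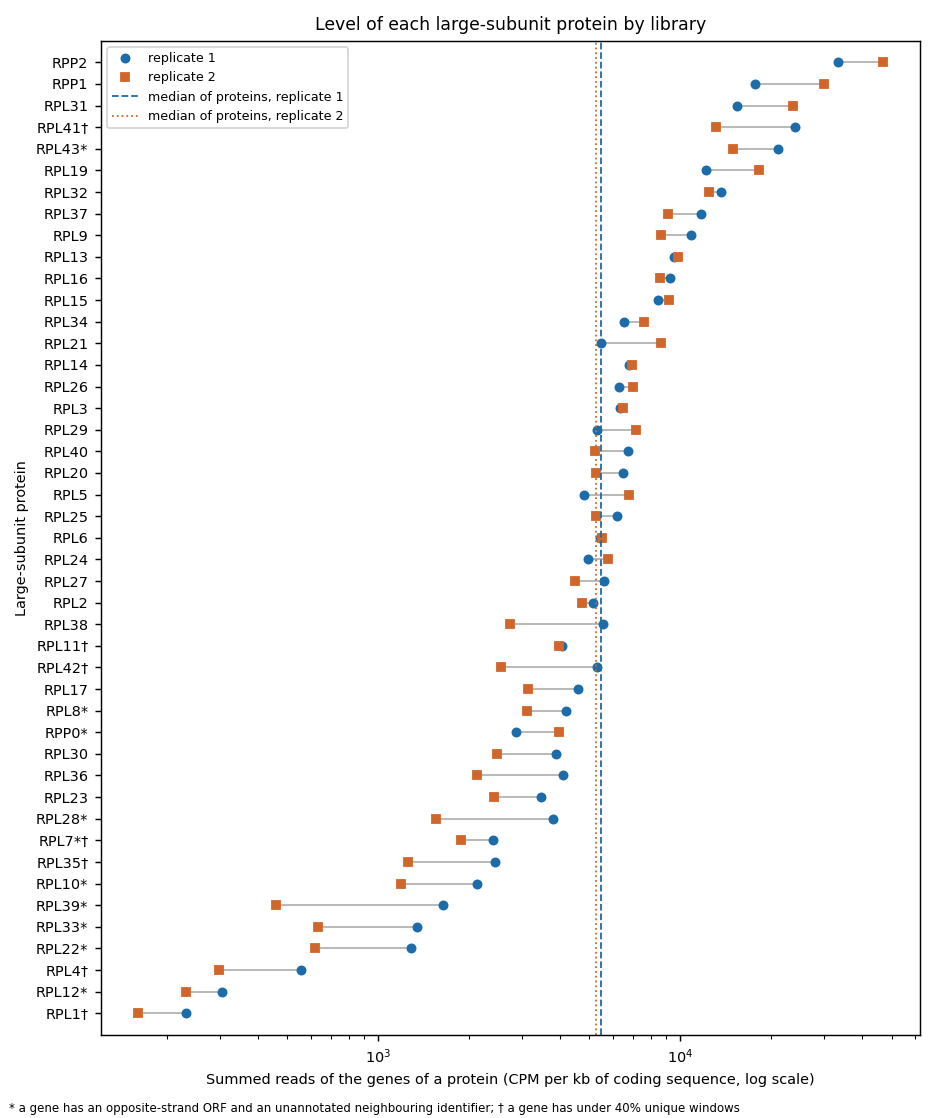
Level of 45 of the 46 large-subunit proteins, as the summed CPM per kb of its genes on a log axis, in replicate 1 (circles) and replicate 2 (squares), with grey lines joining the libraries and vertical lines at the median protein. Stars mark an opposite-strand reading frame beside an unannotated identifier and daggers under 40% unique windows, both explained in the text. RPP2 and RPP1 lead in replicate 2, and RPL1, RPL12 and RPL4 stand lowest in both libraries.

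The proteins of the stalk filaments had the highest mean levels per length. RPP2A and RPP2B, the P2 genes, had 20481 and 12709 CPM per kb in replicate 1 and 28551 and 18354 in replicate 2. RPP1A and RPP1B, the P1 genes, had 8660 and 8991 in replicate 1 and 12488 and 17288 in replicate 2. Summed over genes, P2 stood at 40047 ± 9698 CPM per kb and P1 at 23713 ± 8574 (SD, n = 2), the highest and next highest of the 46 proteins. In replicate 1 alone RPL41, at 23967 CPM per kb, and RPL43, at 20974, lay above P1, at 17651. Divided by the 2 copies of each in a ribosome, P1 was 1.62-fold and 2.82-fold the median protein, and P2 was 3.04-fold and 4.45-fold.

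Within the stalk the levels were unequal. P2 was read 1.88-fold and 1.58-fold as much as P1 per length. In the known heterodimers, RPP1A had 0.681 and 0.680 of the level of its partner RPP2B, and RPP1B 0.439 and 0.606 of that of RPP2A. RPP0, which anchors both heterodimers, had 2872 and 3976 CPM per kb, so that P1 exceeded it 6.15-fold and 7.49-fold and P2 11.6-fold and 11.8-fold. RPL12A and RPL12B, of the stalk base, were far below, with 281 and 23.3 CPM per kb in replicate 1 and 221 and 10.3 in replicate 2. RPP0 and both RPL12 genes have a reading frame on the opposite strand, described further on, and its part in their low values was not tested.

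**Figure D2:**
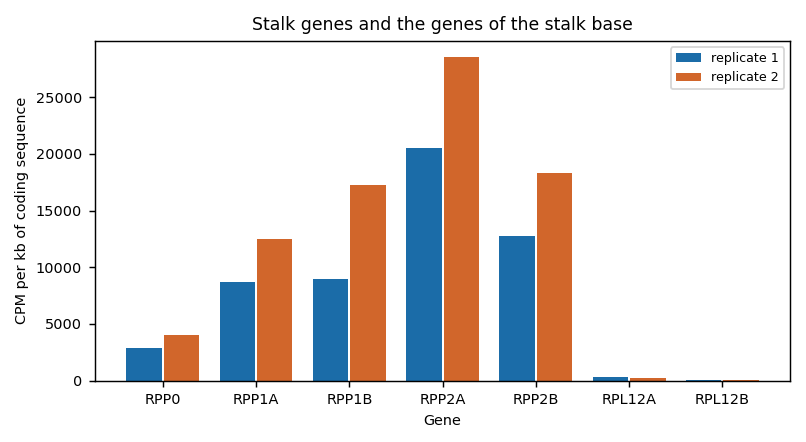
CPM per kb of coding sequence for the 5 stalk genes and the RPL12 genes of the stalk base, with 1 bar per library and no error bar, since each bar is a single library. Each P gene is higher in replicate 2, and RPL12A and RPL12B are at most 281 CPM per kb.

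Among the other proteins without a paralog, RPL32 was highest, with 13636 and 12425 CPM per kb. RPL3, which reaches towards the peptidyl transferase centre, had 6322 and 6459, the smallest difference between libraries in this group. RPL29 had 5283 and 7154 CPM per kb, RPL25, a docking site for factors at the tunnel exit, 6161 and 5273, and RPL5, which carries 5S RNA, 4797 and 6789. These lay close to the median protein. RPL38 had 5537 and 2729 CPM per kb and RPL30, which represses splicing of its own transcript, 3866 and 2474. RPL28, at the cycloheximide site, had 3804 and 1561 CPM per kb, and RPL10, which joins the subunit last near the P site, 2122 and 1191. RPL39, a small protein of the tunnel wall, was lowest with 1637 and 460.

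Of the paired proteins, RPL31 at the tunnel exit had the highest mean level outside the stalk, with 15417 and 23521 CPM per kb summed over its genes. RPL43, with 20974 and 14974, and RPL19, an exit protein that also reaches the small subunit, with 12156 and 18246, were also among the 6 highest. RPL41, which lies at the interface with the small subunit, had 23967 and 13127, so that in replicate 1 it and RPL43 stood above RPL31. The lowest proteins were RPL1 with 232 and 161 CPM per kb, RPL12 with 304 and 231, RPL4, which lines the tunnel, with 554 and 297, RPL22 with 1282 and 618 and RPL33 with 1343 and 633. RPL42 at the cycloheximide site had 5318 and 2553. RPL40, made as a fusion to ubiquitin, had 6727 and 5233 CPM per kb, and the ubiquitin part of its reading frame is included in this length.

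The low values went together with features of the sequence that decide how reads can be assigned. For each gene the share of 28-nt windows of the spliced coding sequence that occur once in the genome was computed, since how reads with several positions were handled is not given in the sources used here. Windows across an exon junction are absent from the genome and counted as not unique, up to 37 of them in the RPL7 genes. The cuts on this share therefore depend in part on introns. The share ran from 11.3% in the RPL1 genes to 100% in 8 genes, and 14 genes had under 40%. Those 14 had medians of 1744 and 1094 CPM per kb. The medians were 4860 and 3651 for the 30 genes with at least 80% unique windows that are not among the 12 covered genes described below. These 30 include RPL3, which has an opposite-strand reading frame only. They also include genes without a paralog, such as RPL32 and RPL5, whereas all 14 genes under 40% belong to pairs. A pair splits the reads of its protein over both genes, so the medians differ in copy number as well. RPL4A and RPL4B, with 17.1% unique windows, had 411 and 143 CPM per kb in replicate 1, and RPL35B, with 13.4%, 648. RPL41A and RPL41B, both with 17.6%, had 20058 and 3909 in replicate 1, above the median of 3112 over all 81 genes. Over all 81 genes the level per kilobase and the unique share had rho = 0.376, as a description of genes that share the libraries.

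Other low genes have ample unique sequence, and several of these carry a second feature, noticed after the values were seen. The CDS tables list 673 identifiers that the R64 annotation does not hold. Systematic names give chromosome arm, order and strand, and 12 members combine such an identifier of the opposite strand at a distance of at most 1 in order with an open reading frame of at least 100 codons that covers at least 10% of their coding bases on the opposite strand. They are RPL7B, RPL8A, RPL8B, RPL10, RPL12A, RPL12B, RPL22A, RPL28, RPL33A, RPL39, RPL43A and RPP0. Whether identifier and reading frame are the same cannot be told apart from names alone. These neighbours were listed at 0 in both libraries, except that of RPL33A, with 1 read in replicate 1.

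The 12 genes had medians of 1359 and 745 CPM per kb, against 3281 and 2754 for the 67 members with no such frame. RPL12B, 89.8% covered, had 23.3 and 10.3 CPM per kb; RPL22A, 96.7% covered, 147 and 45; and RPL33A, 88.0% covered, 489 and 157. In contrast, RPL43A was 99.3% covered and had 9344 and 5899. In each of the 6 pairs with a covered gene, the paralog with the larger covered share had fewer reads. RPL3 and RPL15B have a frame but no such identifier, and had 6322 and 117 CPM per kb in replicate 1. Over all annotated CDSs the medians were 12.5 and 8.09 CPM per kb for the 417 with both features. They were 21.1 and 12.7 for the 750 with a frame only, and 23.1 and 13.2 for the 4826 with no such frame. The part of these features in the levels was not tested.

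**Figure D3:**
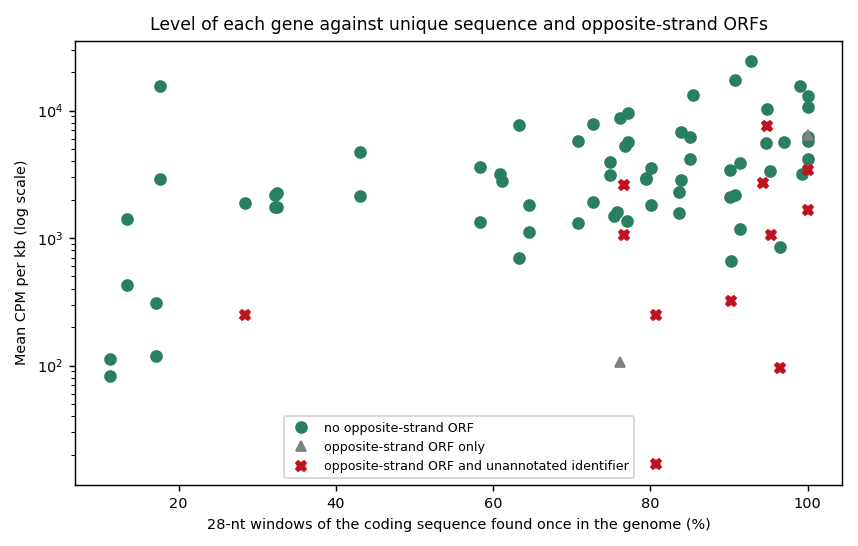
Mean CPM per kb of each of the 81 genes on a log axis against the share of 28-nt windows found once in the genome, with triangles for the 2 genes that have an opposite-strand reading frame only and crosses for the 12 genes that have an opposite-strand reading frame and an unannotated neighbouring identifier. The RPL1 and RPL4 genes lie low at the left, and the lowest point is RPL12B, a cross.

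The comparison was also restricted to the 17 proteins whose genes all have at least 80% unique windows and are not among the 12 covered genes. RPL3, which has a frame only, is one of the 17. Levels then ran from 3866 to 33190 CPM per kb in replicate 1 and from 2474 to 46905 in replicate 2. Of these 17 proteins, 12 in each library lay within 2-fold of the median of all 46 proteins. The coefficient of variation of the mean level was then 91.3%, against 101% for all proteins. With P1 and P2 also divided by their 2 copies it was 59.9%, against 78.9% for all proteins with the same division.

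Within pairs, reads were seldom divided evenly. The more read paralog was A in 22 pairs and B in 13, and it held a median of 68.7% of the reads of the pair over the 35 pairs. In 8 pairs it held over 80% and in 10 at most 60%. Many of these pairs have few unique windows, and the split there is uncertain. The 10 pairs with at least 80% unique windows in both genes and no covered gene had a median of 62.1%, with 1 pair above 80%.

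Among the 14 pairs with at least 80% unique windows, RPL12 and RPL31 leaned furthest to paralog A. RPL12A held 92.3% of the reads of its pair in replicate 1 (95% Wilson interval 91.4% to 93.2%) and 95.6% in replicate 2 (92.7% to 97.3%). RPL31A held 88.5% and 89.0%, RPL27A 75.5% and 78.2%, RPL24A 66.2% and 65.8%, and RPL6A 62.4% and 61.3%. At the other end, RPL22A held 11.4% and 7.22%, RPL13A 29.8% and 28.8%, RPL33A 36.4% and 24.8%, RPL16A 41.1% and 34.0%, and RPL43A 44.6% and 39.4%. RPL26A held 23.6% and 18.0% but is outside the 14 pairs. Its partner RPL26B has 76.8% unique windows, with 16 windows across the exon junction counted as not unique. RPL22A, RPL33A and RPL43A are the covered genes of their pairs, and both RPL12 genes are covered. Of the P genes, RPP1A held 49.1% and 41.9% of P1 reads and RPP2A 60.8% and 59.99% of P2 reads.

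**Figure D4:**
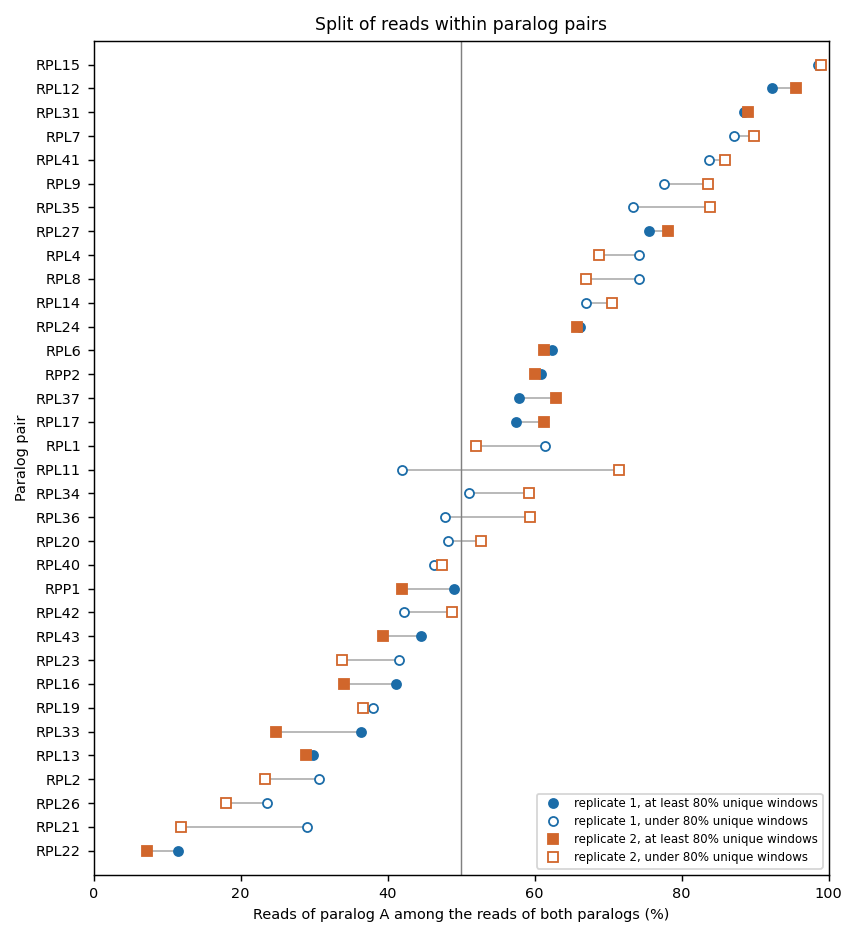
Share of paralog A in the reads of 34 of the 35 pairs, in replicate 1 (circles) and replicate 2 (squares); filled symbols have at least 80% unique windows in both genes. Over all 35 pairs the median shift between libraries is 5.04 percentage points, and RPL11 moves furthest, from 41.9% to 71.5%.

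The split of a pair differed between libraries beyond counting error in most pairs, while its order was largely kept. The 95% Wilson intervals of the share of A did not overlap in 29 of 35 pairs. No such count over other gene pairs is given here, so this count has no background. The 71.0% of all CDSs that differed between the libraries on CDS totals cannot serve as one. That test includes the shared shift, which a share within a pair does not. The more read paralog was the same in 32 of the 35 pairs, and the share of A had rho = 0.941 between the libraries. It moved by a median of 5.04 percentage points, by under 5 points in 17 pairs and by over 10 in 5. These 5 were RPL11, RPL21, RPL33, RPL36 and RPL35, named after their values were seen. RPL11A, with RPL5 a carrier of 5S RNA, held 41.9% of its pair in replicate 1 (41.5% to 42.4%) and 71.5% in replicate 2 (70.3% to 72.7%). RPL21A held 29.0% (28.7% to 29.4%) and 11.8% (11.2% to 12.4%). The unique share of windows is 32.5% in both RPL11 genes and 70.8% in both RPL21 genes. RPL40A, by comparison, held 46.3% and 47.4%.

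The libraries differed at most members beyond counting error. An exact binomial test of each gene's split between the libraries against the CDS totals, adjusted by Benjamini-Hochberg over 5131 CDSs, called 75 of the 81 at 0.05, against 71.0% of all CDSs tested. This compares the libraries, not conditions. Of the 81, 23 were higher in replicate 2, against 7.09% of all CDSs, and 52 lower, against 63.9%. The direction rests on scaling. With edgeR's TMM factors, which bring the typical CDS to no change, 52 were higher and 20 lower, against 24.4% and 19.2% of all CDSs (43.6% in either direction). With DESeq2 size factors 53 were higher and 19 lower, against 25.8% and 17.4% (43.2% in either direction). The median log2 ratio of the members was -0.31, with a range from -1.82 to 0.97, and 53 lay above the shared shift. The corresponding median of small-subunit genes was -0.18, and 44 of 56 lay above the shift.

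**Figure D5:**
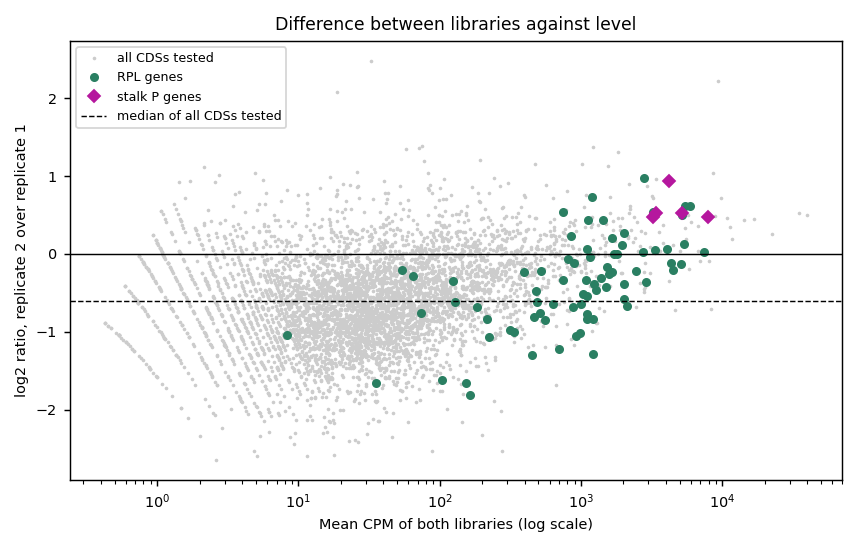
Log2 ratio of replicate 2 over replicate 1, with a pseudocount of 1 CPM, against mean CPM on a log axis for all 5131 CDSs tested, RPL genes and the 5 stalk P genes. The stalk genes lie between 0.47 and 0.94, above the dashed shared shift at -0.61, and RPL39 is lowest among members at -1.82.

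All 5 stalk P genes were higher in replicate 2, and under TMM scaling as well. RPP1B had 67640 and 15170 reads, 2886 and 5549 CPM, which is 1.92-fold (95% exact interval 1.89 to 1.96). RPP0 was 1.38-fold higher (1.36 to 1.41), RPP2A 1.39-fold, RPP1A 1.44-fold and RPP2B 1.44-fold. Together the 5 genes took 1.92% of the CDS reads of replicate 1 and 2.86% of those of replicate 2. The base protein genes went the other way on CDS totals: RPL12A had 3279 and 301 reads, 0.787-fold (0.697 to 0.886), and RPL12B 0.441-fold (0.238 to 0.753). With TMM scaling RPL12A was higher and RPL12B was not called.

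Furthest towards replicate 2 stood RPL21B, a protein of the central protuberance region, with 43950 and 10051 reads (1.96-fold, 1.92 to 2.00), RPP1B, RPL11A with 20959 and 4073 reads (1.67-fold, 1.61 to 1.72), RPL19B (1.53-fold) and RPL31A (1.53-fold). The partners of the latter genes were not alike. RPL19A and RPL31B were also higher, 1.45-fold and 1.46-fold, whereas RPL21A was lower, at 0.641-fold (0.606 to 0.678), and RPL11B at 0.479-fold (0.456 to 0.504). With TMM scaling RPL11B was still lower, but RPL21A was 0.979-fold and not called by the exact binomial test (Benjamini-Hochberg adjusted p = 0.612).

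In the other direction stood RPL39, with 5985 and 196 reads, 255 and 71.7 CPM (0.281-fold, 0.242 to 0.324). Next by log2 ratio, with its pseudocount of 1 CPM, came RPL35B of the tunnel exit, with 5511 and 201 reads (0.313-fold), RPL22A with 1264 and 45 (0.305-fold), RPL33A with 3715 and 139 (0.321-fold) and RPL36B with 15127 and 717 (0.406-fold). Their partners were lower too: RPL35A 0.593-fold, RPL22B 0.505-fold, RPL33B 0.558-fold and RPL36A 0.650-fold. RPL39, RPL22A and RPL33A are among the 12 covered genes, whose median log2 ratio was -0.76. Those with under 40% unique windows had a median of -0.79, and the 30 genes with at least 80% unique windows outside the 12 had -0.01.

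At the cycloheximide site, RPL28 had 40120 and 1920 reads, 1712 and 702 CPM, which is 0.410-fold (0.392 to 0.430). RPL42A and RPL42B were 0.553-fold and 0.426-fold. All 3 were lower under TMM scaling too. RPL28 is among the 12 covered genes, and both RPL42 genes have 32.3% unique windows. RPL10 was 0.562-fold and RPL3 1.02-fold (1.01 to 1.04). By place in the subunit, 5 of 7 genes of the stalk and its base were higher and 2 lower, of 3 in the 5S particle 2 were higher and 1 lower, of 14 at the tunnel exit 5 were higher and 9 lower, and of 9 at the tRNA sites and catalytic centre 1 was higher, 6 were lower and 2 were not called. Over all CDSs tested 7.09% were higher and 63.9% lower, so the lower counts at the tunnel exit and the tRNA sites lay near the background. Their median log2 ratios were 0.48, 0.50, -0.34 and -0.75. With TMM scaling the counts were 6 and 0, 2 and 1, 8 and 5, and 4 and 4, where 24.4% of all CDSs were higher and 19.2% lower. At the tRNA sites, RPL10 is also covered and the RPL1 genes have 11.3% unique windows. Over all members the median log2 ratio was -0.76 for covered genes and -0.79 for genes under 40% unique. Place and these features therefore overlap, and the part of each in the ratios was not tested.

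Ratios of paralogs went together in part, with rho = 0.532 over 35 pairs; in 10 pairs their signs differed. Across members the log2 ratio had rho = 0.602 with the mean level per kilobase, 0.239 with GC content and 0.202 with coding length, and over 5124 CDSs of known length 0.252, 0.159 and 0.016. The mean level holds the counts of replicate 2, so part of the first value is built in. With the level of replicate 1 alone rho was 0.460 across members.

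Introns, position and promoter letters played no part in the choice of the genes. An intron interrupts the coding sequence of 53 genes, RPL7A and RPL7B having 2 each, and the medians were 3112 and 2479 CPM per kb with an intron and 2994 and 2410 without. The genes lie on 14 chromosomes, 36 on the minus strand. The letters ACCCNTACA, a core of the Rap1 motif, on either strand within 500 nt before the start codon, were found for 27.2% of members, 21.4% of small-subunit genes and 1.80% of 5993 annotated CDSs. Members with these letters had medians of 2599 and 1583 CPM per kb and those without 3117 and 2729. Such a match is a description and not a binding site.

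In 9 places a member neighbours another ribosomal protein gene. RPL24A and RPL30 are divergent neighbours 1156 nt apart on chromosome VII, with log2 ratios of 0.21 and -0.64. RPL13A and RPP1A converge on chromosome IV, 413 nt apart, with ratios of -0.01 and 0.53. RPS22A and RPL39, divergent on chromosome X, had -0.23 and -1.82. These 3 examples were chosen after their values were seen and do not stand for all 9.

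Other genes of large-subunit production were read far less. Regulators of ribosomal protein genes had medians of 92.6 and 48.1 CPM, led by the HMG-box protein gene HMO1 with 567 and 668 and by RAP1 with 174 and 146. Of these 6, 5 were tested. On CDS totals HMO1 was higher in replicate 2, 1.18-fold, and 4 were lower, against 7.09% and 63.9% of all CDSs. With TMM scaling 2 were higher and 2 lower, against 24.4% and 19.2%. Dedicated chaperones of single large-subunit proteins had medians of 164 and 97.7 CPM, led by SQT1, the chaperone of Rpl10, with 481 and 548, and RRB1, that of Rpl3, with 506 and 327. Of the 5 chaperone genes, SQT1 was higher on CDS totals, 1.14-fold, and 4 were lower, while Rpl10's own gene was lower. With TMM scaling 1 chaperone gene was higher and 1 lower. Factors of late maturation and export had medians of 189 and 147 CPM, with TIF6 at 513 and 344 and MRT4, the P0-like assembly factor of the stalk base, at 330 and 162. All 9 found of the 10 listed were lower on CDS totals, where 63.9% of all CDSs were; with TMM scaling 3 were higher and 1 lower.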

How the data were processed

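Ribosome footprints of 2 replicate BY4742 libraries were analysed from the raw counts of reads per CDS and per intergenic open reading frame (IGORF) that the authors deposited. Per the submitters' processing notes, the tools were Cutadapt, Bowtie and SAMtools and the build was sacCer3; no versions are listed. Not given in the sources used here: the counting tool, the annotation, strand use and the handling of reads with several positions. These steps decide how reads reach paralogs and overlapping genes.

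Symbols, coding sequences and positions came from R64, which holds 5993 of the 6666 identifiers; in all, 673 were unmatched. CPM used CDS totals. Log2 ratios used a pseudocount of 1 CPM, and folds none. Libraries were compared by the two-sided exact binomial test (mean of at least 10 reads, Benjamini-Hochberg over all 5131 CDSs, threshold 0.05). It was tried on simulated Poisson counts, which hold no spread beyond counting error and no shared shift. That trial therefore does not show how the test behaves on the spread between real replicates. Intervals (95%) cover counting error only, and counting error here treats each read as a separate molecule. PCR duplicates cannot be told from separate molecules here, and any present would make the intervals and the test too narrow. Scaling used R 4.3.3, with edgeR 4.0.16 for TMM and DESeq2 1.42.0 for its median-of-ratios factors. Tests and summaries ran in Python 3.11.15 with numpy 2.4.6, scipy 1.17.1 and pandas 2.3.3. Unique windows were exact matches on both strands. Alternatives changed the scaling, minimum count, length measure, windows, proteins and libraries used.

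Members and lists were chosen with earlier results of these data known. Named were all genes of the stalk and its base, those without a paralog, the extremes of level, split and ratio, and the genes of the cycloheximide site, RPL40 and RPL41, with the 2 highest of each other list. The opposite-strand features, the genes with paralogs moving by over 10 points and the neighbouring genes were chosen after values were seen. Of the late maturation list, EFL1 was not matched by symbol. The values of 1 member are not reported singly here, and its protein is left out of the figures by protein and by pair.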

Additional observations from a re-analysis of the deposited data

Results flagged for a closer look

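The IGORF tables, which enter no comparison above, held few reads beside large-subunit genes. Within 200 nt upstream of 74 members lay 274 IGORFs on the same strand, which held 16 and 87 reads. These are 0.394% and 0.576% of all IGORF reads, which numbered 4057 and 15116 in replicates 1 and 2. Reads were counted in 10 of them in replicate 1, in 25 in replicate 2 and in 4 in both. IGORFs with more than the 3 reads that a count of 0 allows are given here; all passed this limit in replicate 2 only.

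The IGORF that ends 1 nt before RPL17A (chromosome XI, 109019 to 109267) had 0 and 18 reads. That ending 1 nt before RPL25 (chromosome XV, 80284 to 80346) had 0 and 11. An overlapping IGORF (80273 to 80341), not among those past the limit, had 3 and 1. Upstream of RPL35B (chromosome IV, 217481 to 217579) there were 3 and 10 reads, at 20 nt, and upstream of RPL12B (chromosome IV, 1301399 to 1301479) 1 and 9, at 136 nt. Those before RPL14A (chromosome XI, 431813 to 431890) and RPL39 (chromosome X, 75852 to 75926) had 0 and 5 reads each, at 15 and 6 nt, and that before RPL33B (chromosome XV, 779428 to 779559) 0 and 4, at 22 nt. For RPL12B, the 9 reads in replicate 2 stand beside 14 in the coding sequence. Distances run from the end of the IGORF to the start codon, 6 of the 7 are under the 28 nt used above as a footprint length, and the part of reads that overhang the start codon was not tested.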

How the results depend on the processing

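The number of members that differed between libraries was 75 of 81 on CDS totals and from 72 to 76 under the other scalings and minimum counts, but the direction was not stable. Those higher in replicate 2 numbered 23 on CDS totals, 52 with TMM and 53 with DESeq2 size factors, and those lower 52, 20 and 19, since these scalings bring the median CDS to no change. Of 39 genes whose ratios were followed, RPL12A (log2 fold 0.27 with TMM, 0.30 with DESeq2), RPL25 (0.39, 0.42) and RPL32 (0.48, 0.51) reversed under both. So did RPL40A (0.28, 0.31) and RPL40B (0.22, 0.25). Here a log2 fold has no pseudocount. RPL12B (-0.57, -0.54), RPL21A (-0.030, 1.57e-08), RPL30 (-0.032, -0.0019) and RPL36A (-0.0097, 0.020) lost their calls under both.

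The share of CDS reads was 14.1% or 14.6% with 1 library left out and 14.3% over CDS and IGORF reads together. The median CPM was 1136, from 960 to 1312 with 1 library, and 2500 with paralogs summed. The coefficient of variation over proteins was 101%, from 89.6% to 117% with 1 library. It was 181% per unique window (the cause was not tested) and 78.9% with P1 and P2 divided by 2 copies. With that division and only genes with at least 80% unique windows outside the 12 covered ones it was 59.9%, a setting chosen after seeing the data. With the coding length shortened by 45 nt at each end, 45 proteins remained and it was 108%. The reads were unchanged, since counts per CDS do not allow reads at the ends to be removed. The median share of the more read paralog in pairs with at least 80% unique windows was 64.2%, from 63.0% to 65.9% with 1 library, 61.9% with 25-nt windows and 62.1% without covered genes, the last chosen after seeing the data. No paired analysis was possible because there is 1 group of 2 libraries, and the difference between libraries needs both. The depth of replicate 2 limits the rarest members, with 14 reads in RPL12B and 45 in RPL22A.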
